A study of Mus musculus with 25 samples.

Results

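The 50 genes described here encode proteins that make ribosomes in the nucleolus, and they were measured by RNA sequencing in pools of mouse embryos collected at the late two-cell stage. They were chosen by name, from a list of factors of ribosomal RNA (rRNA) transcription, rRNA processing and ribosome assembly. They are 50 of the 55375 annotated genes in the count table, and every one of them was matched and detected in all 25 libraries, with a lowest count of 181 reads for Gar1 in 1 library. By role they comprise 7 genes of RNA polymerase I transcription, 5 abundant nucleolar proteins, 4 proteins of box C/D and 4 of box H/ACA small nucleolar ribonucleoproteins (snoRNPs), 19 factors of the small ribosomal subunit and 11 of the large subunit. All but the X-linked Dkc1 are autosomal.

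RNA polymerase I copies the rRNA genes into a long precursor in the nucleolus. The precursor is modified by snoRNPs, cut in a large complex called the small subunit processome, and folded with ribosomal proteins and helicases into the subunits of the ribosome. In the mouse, the embryonic genome is switched on strongly at the late two-cell stage, when the inactive nucleolus precursor bodies inherited from the egg begin to turn into working nucleoli, and a somatic nucleus placed in an egg has to take the same step.

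The study compared embryos made by in vitro fertilization (IVF) with cloned embryos made by somatic cell nuclear transfer (SCNT), in which the nucleus of a cumulus cell was placed in an enucleated oocyte. IVF embryos (n = 4) came from wild-type C57BL/6N oocytes and DBA2 sperm, and all SCNT embryos from wild-type BDF1 oocytes and BDF1 cumulus nuclei. The first SCNT series was cultured with cytochalasin B during and after activation. It comprised untreated SCNT controls (n = 2), SCNT-Kdm3a embryos (n = 2) and SCNT-Kdm4d embryos (n = 2). The latter 2 groups were injected 5 to 6 h after activation with mRNA of Kdm3a or of Kdm4d. Kdm3a is a demethylase of mono- and dimethylated lysine 9 of histone H3 (H3K9), and Kdm4d of di- and trimethylated H3K9. The second SCNT series carried latrunculin A in place of cytochalasin B in every group and comprised latrunculin A controls (n = 2), embryos given the histone deacetylase inhibitor trichostatin A (TSA, 25 nM for 8 h, n = 2), a G9a inhibitor (G9ai, 1 µM for 24 h) alone, either RK-701 (spelled R701 in the labels, n = 3) or A366 (n = 2), or TSA together with RK-701, A366 or UNC0638 (n = 2 each). G9a is an enzyme that methylates H3K9. Each library came from a pool of 5 to 10 embryos collected 28 to 29 h after insemination or activation. Nothing else says how far the replicates were separate, so the p-values measure the spread between these pools, which may be partly technical. In pooled embryos, fewer cells of a kind and less RNA per cell cannot be told apart.

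The libraries held 6662727 to 21188688 reads in genes (median 13994840). The injected mRNAs were found where the labels place them, Kdm3a at 3419.9 to 3801 CPM (counts scaled to a common library size) against 119 to 293 in the other libraries and Kdm4d at 13789.6 to 20371 CPM against 0.786 to 5.57. The 10 oocyte and embryo markers, such as Zp3, Gdf9 and Dppa3, were all above 0 in every library, and their levels in TPM (counts divided by gene length, then scaled to a common total) summed to 21228 to 24105 in IVF embryos, 20856 to 22556 in SCNT controls, 27747 to 28297 in SCNT-Kdm3a, 23571 to 23833 in SCNT-Kdm4d, 13684 to 17251 in latrunculin A controls, 14878 to 18176 under TSA or a G9ai alone and 19578 to 22795 in the 3 co-treatments. Most of this sum was Dppa3, with a mean of 12235 TPM in latrunculin A controls and 19088 under TSA with RK-701, while 8 of the 10 had a lower mean there, among them Bmp15 (697 and 264 TPM) and Zbed3 (1335 and 565 TPM). The sum of the 10 and the median of the 50 genes were both above the control in the demethylase and co-treatment groups, and its part in the results was not tested. The 13 two-cell markers summed to 864 to 3997 TPM, highest under TSA with UNC0638 and in SCNT-Kdm3a and mostly Gm5662, Tcstv3 and Zfp352 there, whereas Zscan4a was highest in IVF embryos. Under TSA with RK-701 or A366 this sum was 1007 to 1255 TPM, below the 1372 to 1693 of the latrunculin A controls. The 12 cumulus cell markers summed to 41.4 to 120 TPM, mostly Amhr2, 5 of them stayed under 1 TPM in every library, and Ptx3 and Inha were each at 0 in 22 libraries.

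The promoter sequences of 45 of the 50 genes were matched in RefSeq (GRCm38.p6, 250 bases before to 50 bases after the transcription start), and 5 are printed, for genes whose levels carry the results described later. These are Rrn3, at chr16:13780449-13780748 on the plus strand, Mphosph10, at chr7:64392187-64392486 on the minus strand, Ddx18, at chr1:121567931-121568230 on the minus strand, Polr1e, at chr4:45018359-45018658 on the plus strand, and Imp3, at chr9:56937250-56937549 on the plus strand. Each is written 5′ to 3′ along the gene, and capitals mark any match, on either strand, to the motifs searched. The E-box, bound by MYC and related factors, was searched as CACGTG. The site of the ETS family of transcription factors was searched as CCGGAAG. The CCAAT box of the factor NF-Y has its letters in its name. The GC box of the SP family was searched as GGGCGG, and the TATA box of the core promoter as TATAAA. An NRF1 site was searched too and is given by its name alone.
Rrn3: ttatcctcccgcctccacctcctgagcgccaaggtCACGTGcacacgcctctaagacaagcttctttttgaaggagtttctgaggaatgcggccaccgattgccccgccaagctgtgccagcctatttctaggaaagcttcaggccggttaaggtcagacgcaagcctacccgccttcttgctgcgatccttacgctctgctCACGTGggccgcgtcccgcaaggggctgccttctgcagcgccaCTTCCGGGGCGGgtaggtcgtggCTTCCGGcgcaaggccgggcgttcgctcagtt
Mphosph10: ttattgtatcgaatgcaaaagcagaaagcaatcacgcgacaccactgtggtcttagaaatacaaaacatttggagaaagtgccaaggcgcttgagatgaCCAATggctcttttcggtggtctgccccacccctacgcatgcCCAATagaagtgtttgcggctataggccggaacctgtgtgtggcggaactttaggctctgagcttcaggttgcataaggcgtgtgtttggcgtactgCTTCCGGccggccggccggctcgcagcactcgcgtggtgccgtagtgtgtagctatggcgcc
Ddx18: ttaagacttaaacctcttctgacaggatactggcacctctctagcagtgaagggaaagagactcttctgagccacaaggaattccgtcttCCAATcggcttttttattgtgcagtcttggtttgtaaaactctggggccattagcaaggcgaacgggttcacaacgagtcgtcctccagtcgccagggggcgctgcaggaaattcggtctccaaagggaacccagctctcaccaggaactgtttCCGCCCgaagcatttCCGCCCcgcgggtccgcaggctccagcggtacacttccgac
Polr1e: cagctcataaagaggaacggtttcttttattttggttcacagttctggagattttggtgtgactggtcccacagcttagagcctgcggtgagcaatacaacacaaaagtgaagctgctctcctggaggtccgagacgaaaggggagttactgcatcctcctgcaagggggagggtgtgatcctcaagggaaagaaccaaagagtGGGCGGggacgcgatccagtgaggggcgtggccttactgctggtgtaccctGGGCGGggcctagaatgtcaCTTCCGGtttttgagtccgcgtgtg
Imp3: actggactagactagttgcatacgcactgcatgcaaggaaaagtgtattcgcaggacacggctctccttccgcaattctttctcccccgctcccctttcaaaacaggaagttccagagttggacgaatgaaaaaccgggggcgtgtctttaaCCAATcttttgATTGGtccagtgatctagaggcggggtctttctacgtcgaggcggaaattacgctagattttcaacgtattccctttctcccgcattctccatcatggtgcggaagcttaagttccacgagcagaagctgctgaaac
The Rrn3 promoter held 2 E-boxes, 2 ETS sites and 1 GC box, of which the GC box and an ETS site share 1 base. The Mphosph10 promoter held 2 CCAAT boxes and 1 ETS site, the Ddx18 promoter 1 CCAAT box and 2 GC boxes, the Polr1e promoter 2 GC boxes and 1 ETS site, and the Imp3 promoter 2 CCAAT boxes. Over the 45 promoters, the ETS site was found in 17 (37.8%, against 9.93% of the promoters of 27025 genes of the same length), the GC box in 30 (66.7% against 38.2%), the E-box in 9 (20% against 8.09%), the CCAAT box in 19 (42.2% against 41.1%), the TATA box in 2 (4.44% against 15.7%) and the NRF1 site in 0 (against 1.07%). The GC content of these promoters had a median of 57.3%, against 53.3% over all genes. For a gene with several listed starts, a motif counted if any start held it, and the highest GC content was taken. The number of starts per gene was not matched between the members and all genes. A match describes letters in these windows and is not a measured binding site.

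Together the 50 genes took 1.06% to 1.70% of all reads in genes. The share was 1.11% to 1.25% in IVF embryos, 1.06% and 1.34% in the SCNT controls, and 1.06% and 1.25% in the latrunculin A controls. It was 1.53% and 1.64% in SCNT-Kdm3a, 1.51% and 1.66% in SCNT-Kdm4d, 1.67% and 1.69% under TSA with RK-701, 1.62% in both libraries of TSA with A366, and 1.53% and 1.70% under TSA with UNC0638. All 10 libraries of these 5 groups lay above all 15 others. TSA alone gave 1.25% and 1.45%, RK-701 alone 1.09% to 1.37% and A366 alone 1.24% and 1.27%, all overlapping or near the range of the controls. Scaled to length, the mean level over all libraries ran from 15.7 TPM for Polr1a to 2216 TPM for Npm1, with a median of 168 TPM.

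**Figure D1:**
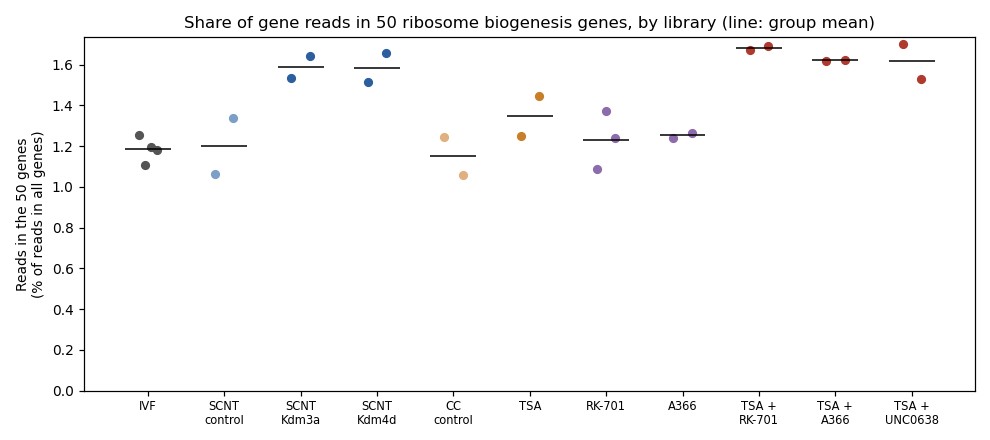
Reads in the 50 genes as a percentage of the reads in all genes, for each of the 25 libraries (points) by group, with the group mean as a line and CC control standing for the latrunculin A controls. The 5 groups given a demethylase mRNA or TSA with a G9ai lie at 1.51% to 1.70%, and the other 6 groups at 1.06% to 1.45%.

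Untreated SCNT embryos were compared with IVF embryos to see which of the genes differed before any treatment. Of the 49 autosomal members, 17 were lower and 5 higher in the SCNT controls than in IVF embryos at an adjusted p under 0.05 by edgeR's quasi-likelihood test (10.6% and 10.7% of all 25794 genes tested were), and of these 6 were lower and 0 higher by more than 2-fold (6.91% and 8.07% of all genes). The latrunculin A controls gave 14 lower and 3 higher (10.2% and 11.5% of all genes), with 4 and 0 beyond 2-fold (6.59% and 8.71%). The members lowest against IVF in both controls were Mphosph10, Polr1c, Polr1e and Utp3, described by role further on, and the median member differed by a log2 fold change of -0.27 and -0.17, against 0.01 and 0.03 over all genes. This median direction was not kept in refits with other scalings. Scaled to all gene reads without the trimmed mean of M values (TMM), the medians were 0.01 and 0.12. Scaled to summed TPM they were 0.00 and 0.16. Compared as group means of CPM of gene reads and of TPM, the SCNT control median stayed just below 0, at -0.053 and -0.0017. In those refits 8 members were lower and 9 higher, and 9 lower and 10 higher, in the SCNT controls. The latrunculin A controls gave 10 lower and 11 higher, and 10 lower and 12 higher. On these scales the share of all genes past the test was not counted. Polr1c, Polr1d, Polr1e, Utp3 and Mphosph10 were past the test in both controls under all 15 alternatives. In the SCNT controls 22 members had every library below every IVF library (20.8% of all genes did), and in the latrunculin A controls 20 (19.6%). Without SCNT control replicate 1, 10 members were past the test, and without latrunculin A control replicate 2, 10 were. Without SCNT control replicate 2, 11 members were called beyond 2-fold, and without latrunculin A control replicate 1, 11 were. In the fits with 1 library left out, the share of all genes past the test was not counted. The 2 kinds of control did not differ in any member by the test (0.00388% of all genes were higher and 0.00775% lower in the latrunculin A controls). An unadjusted p under 0.05 was found for 3 members (2007 of the 25794 genes), and DESeq2 called 0. The 95% intervals of that difference lay within 2-fold for 47 of 49 members.

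Each treatment was compared with its own SCNT control, to ask whether removing H3K9 methylation or raising histone acetylation moved these genes. After Kdm3a mRNA, 18 members rose and 0 fell (4.2% and 1.93% of all genes did), 2 of them by more than 2-fold (2.39% of all genes rose and 1.77% fell by as much). After Kdm4d mRNA, 22 rose and 0 fell (3.94% and 1.25% of all genes), 8 by more than 2-fold (2.13%). The median member log2 fold change was 0.59 and 0.60, against -0.04 over all genes in both comparisons. In each comparison 41 of the 49 members had both treated libraries above both controls (21.1% and 22.9% of all genes). The 2 demethylase groups share their control libraries. Compared directly, no member differed between them by edgeR (0.155% of all genes were higher and 0.19% lower after Kdm4d). An unadjusted p under 0.05 was found for 3 members (2584 of the 25794 genes). DESeq2's test passed 1 member, and 46 of 49 intervals lay within 2-fold. The counts rest on 1 control library: without SCNT control replicate 1, 1 member passed in each comparison and 0 were called beyond 2-fold, whereas without replicate 2, 23 and 25 passed and 15 and 14 were called. With all gene reads or summed TPM as the scale, 6 and 4 members passed after Kdm3a and 8 and 8 after Kdm4d, all higher. On these scales 0 were called beyond 2-fold in either comparison. The share of all genes past the test was counted neither on these scales nor in the fits with 1 control library left out.

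Under TSA with RK-701, 25 members rose and 0 fell (6.47% and 3.18% of all genes), 16 by more than 2-fold (3.75%). Under TSA with A366, 24 rose and 0 fell (5.84% and 3.39%), 10 by more than 2-fold (3.12%), and under TSA with UNC0638, 24 rose and 1, Ubtf, fell (6.02% and 3.01%), with 7 rising more than 2-fold (3.71%). The median member log2 fold change was 0.73, 0.62 and 0.67, against -0.10, -0.12 and -0.07 over all genes. In these 3 comparisons 39, 36 and 36 members had every treated library above both controls (22.5%, 22.3% and 22% of all genes). Leaving out latrunculin A control replicate 2 left 9, 8 and 3 members called beyond 2-fold and 18, 16 and 7 passing at any fold, and leaving out replicate 1 gave 21, 17 and 18 called. With all gene reads as the scale 19, 15 and 10 members rose and 1 fell in each comparison, and with summed TPM 18, 15 and 8 rose and 1, 1 and 2 fell. The numbers called beyond 2-fold were then 3, 2 and 3 with all gene reads and 1, 1 and 2 with summed TPM. On these scales the share of all genes past the test was not counted. The members that passed under all 14 alternatives were Polr1d, Polr1e, Utp3, Utp4, Mphosph10, Dcaf13, Ddx10, Nop16, Ddx18 and Nip7 for RK-701, the same list without Utp4 and Nip7 for A366, and Polr1e, Utp4 and Ddx18 for UNC0638. All 3 comparisons use the same 2 control libraries. For the fits with 1 of them left out, the share of all genes past the test was not counted.

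**Figure D2:**
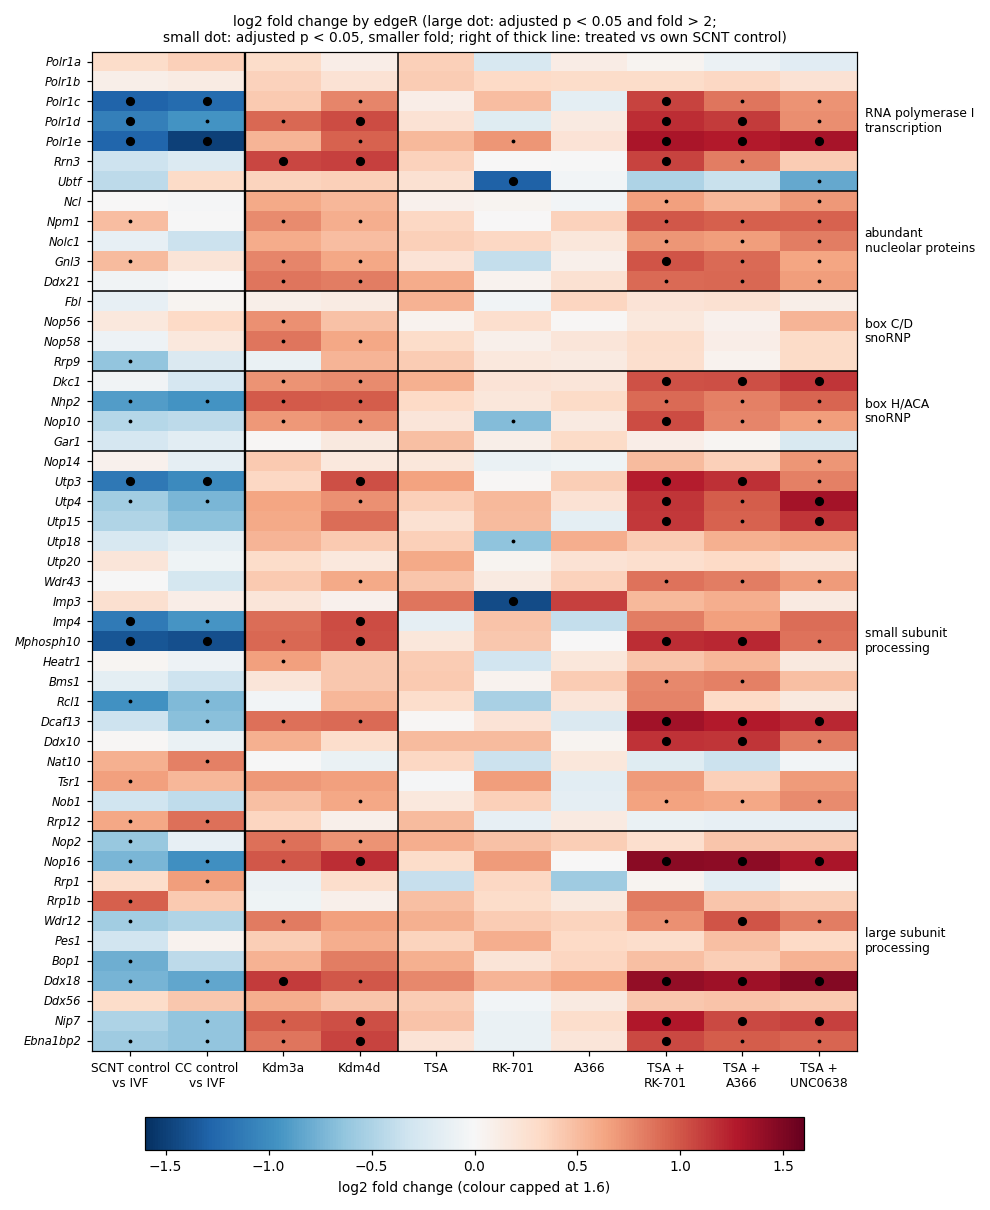
Heat map of log2 fold changes of the 50 genes (rows, grouped by role) in 10 comparisons (columns), coloured from lower (blue) to higher (red), with dots for an adjusted p under 0.05 by edgeR. The left 2 columns compare untreated SCNT embryos with IVF embryos and hold mostly lower values, and the columns of the demethylases and of TSA with a G9ai hold 18 to 25 autosomal genes past the test.

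The size of these differences depended on how the libraries were scaled. The median over all genes in the treated groups moved by -0.24 to -0.27 when group means of TPM were compared with the own control, and by -0.14 to -0.16 for CPM of gene reads, in the 5 comparisons of a demethylase or a co-treatment. Relative to the genes with a mean over 10 on the same scale, the median member was higher by 0.47 to 0.57 with TMM (8445 genes), by 0.46 to 0.56 with CPM of gene reads (8199 genes) and by 0.42 to 0.50 with TPM (8518 genes). The same difference against IVF embryos was -0.15 under each of the 3 scalings in the SCNT controls and -0.08, -0.08 and -0.07 in the latrunculin A controls.

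**Figure D3:**
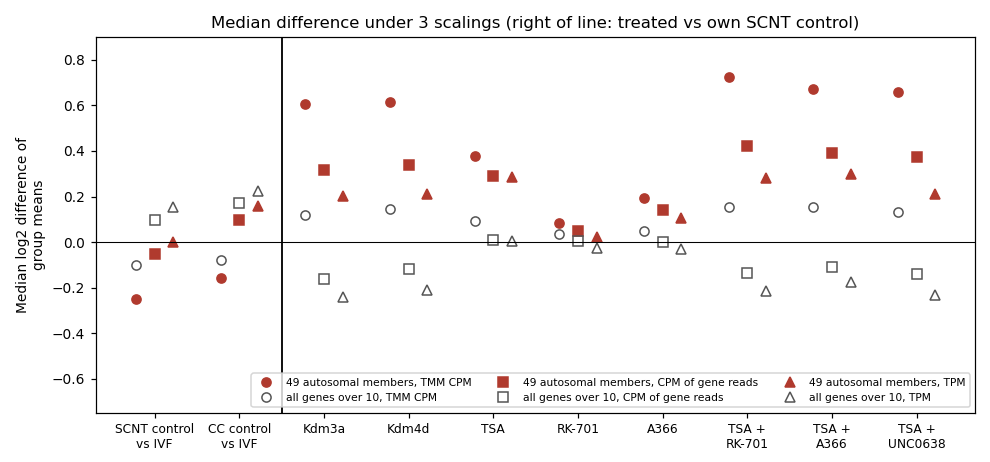
Median log2 difference of group means for the 49 autosomal members (filled red) and for the genes with a mean over 10 on that scale (open grey), under 3 scalings (symbols) in 10 comparisons. The members stay above the other genes by 0.42 to 0.57 in the demethylase and co-treatment comparisons under all 3 scalings, while both sets shift downward together with TPM.

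TSA alone did not move a member past the test by edgeR (0.221% and 0.159% of all genes rose and fell). The largest evidence was for Ddx18, at 0.77 ± 0.23 (adjusted p = 0.124). An unadjusted p under 0.05 was found for 18 members (3325 of the 25794 genes), and DESeq2 passed 2. The median member was 0.38 above the control on the log2 scale, against -0.02 over all genes, 46 of 49 were higher, and 30 had both TSA libraries above both controls (15.9% of all genes). The 95% intervals of 41 of 49 members lay within 2-fold. A366 alone also gave 0 members past the test (0.0892% and 0.0388% of all genes), with a median of 0.18. Its unadjusted p was under 0.05 for 8 members (3087 of the 25794 genes), and 1 passed DESeq2's test. RK-701 alone gave 1 higher, Polr1e, and 4 lower, Ubtf, Imp3, Nop10 and Utp18 (2.68% and 2.78% of all genes), with a median of 0.09. Without latrunculin A control replicate 2, 4 members passed for TSA, 2 for A366 and only 1, lower, for RK-701, and without replicate 1, 10 higher and 5 lower did for RK-701.

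Of the genes of RNA polymerase I transcription, 3 of 7 were lower in each control than in IVF embryos, and in the treated embryos 2 rose after Kdm3a, 4 after Kdm4d, 4 under TSA with RK-701, 4 under TSA with A366 and 3 under TSA with UNC0638. Rrn3, known as TIF-IA, brings the polymerase to the rRNA promoter. Rrn3 was at 362, 327, 339.8 and 349.7 CPM in the IVF embryos, against 245 and 302 in the SCNT controls and 348 and 242 in the latrunculin A controls. SCNT-Kdm3a embryos had Rrn3 at 543 and 603 CPM and SCNT-Kdm4d embryos at 556 and 606. Under TSA alone Rrn3 was at 324 and 436 CPM, under RK-701 alone at 264, 337 and 285, under A366 alone at 304 and 286, and under TSA with RK-701, A366 or UNC0638 at 546 and 698, at 477 and 562, and at 410.3 and 372. In CPM every library of the demethylases and co-treatments was above every IVF and control library. In TPM, TSA with UNC0638, at 251 and 244, was below latrunculin A control replicate 1, at 281. The log2 fold change ± SE was 1.07 ± 0.19 after Kdm3a (adjusted p = 0.00113), 1.09 ± 0.19 after Kdm4d (adjusted p = 0.00136) and 1.08 ± 0.19 under TSA with RK-701 (adjusted p = 0.000711). Under TSA with A366 it was 0.82 ± 0.19 (adjusted p = 0.00699), and under TSA with UNC0638 it did not pass, at 0.41 ± 0.19 (adjusted p = 0.198). Rrn3 was the only member past the test under all 14 alternatives after Kdm3a. Its promoter, printed first among the 5, is the one with both E-boxes and ETS sites.

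Polr1c and Polr1d, subunits shared by RNA polymerases I and III, and Polr1e, a subunit known as PAF53, were the lowest of the group in untreated SCNT embryos. The Polr1c mRNA stood at 372, 323, 335 and 406 CPM in IVF embryos, 135 and 161 in SCNT controls and 190.2 and 116 in latrunculin A controls. After injection, Polr1c was at 164 and 232 CPM with Kdm3a and 234 and 274 CPM with Kdm4d. Under TSA alone Polr1c was at 130.2 and 199 CPM, under RK-701 alone at 186, 247 and 214, under A366 alone at 138 and 138, and under TSA with RK-701, A366 or UNC0638 at 346 and 302, at 269 and 285, and at 258 and 247. Both kinds of control were below all IVF libraries, with log2 fold changes of -1.28 ± 0.21 and -1.23 ± 0.20 (adjusted p = 4.65e-05 and 7.32e-05). Polr1c rose under TSA with RK-701 by 1.08 ± 0.23 (adjusted p = 0.00252), TSA with A366 by 0.85 ± 0.22 (adjusted p = 0.0152), TSA with UNC0638 by 0.72 ± 0.22 (adjusted p = 0.0407) and Kdm4d by 0.78 ± 0.22 (adjusted p = 0.0405). For Polr1d, the IVF libraries gave 254, 228, 249.9 and 239 CPM, the SCNT controls 93.5 and 133 and the latrunculin A controls 136 and 115. Kdm3a mRNA gave Polr1d levels of 169.5 and 259 CPM, and Kdm4d mRNA gave 220 and 247 CPM. Under TSA alone Polr1d was at 147 and 147 CPM, under RK-701 alone at 108, 115 and 107, under A366 alone at 142 and 135, and under TSA with RK-701, A366 or UNC0638 at 265 and 303, at 260 and 285, and at 245 and 175. The IVF range did not overlap with either control, and 3 libraries of the injected or co-treated groups, 1 of SCNT-Kdm3a, 1 of SCNT-Kdm4d and 1 of TSA with UNC0638, stayed below it. Polr1d was lower in the SCNT controls at a log2 fold change of -1.10 ± 0.18 (adjusted p = 7.09e-05) and higher under TSA with RK-701 by 1.18 ± 0.20 (adjusted p = 0.000509). It also rose after Kdm3a (0.92 ± 0.20, adjusted p = 0.00632) and Kdm4d (1.04 ± 0.20, adjusted p = 0.0033).

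Polr1e was at 448, 293, 325 and 389 CPM in the IVF embryos, against 123 and 178 in the SCNT controls and 154 and 102 in the latrunculin A controls. SCNT-Kdm3a embryos had Polr1e at 193 and 245 CPM and SCNT-Kdm4d embryos at 251 and 326. Under TSA alone Polr1e was at 184 and 185 CPM, under RK-701 alone at 179, 228 and 220, under A366 alone at 163 and 137, and under TSA with RK-701, A366 or UNC0638 at 288 and 348, at 310 and 309, and at 347 and 292. The 4 control libraries did not overlap with IVF, and the co-treated libraries fell within or just below the IVF range. The log2 fold change was -1.27 ± 0.21 and -1.50 ± 0.21 in the controls (adjusted p = 5.79e-05 and 8.75e-06), and 1.31 ± 0.23, 1.27 ± 0.23 and 1.31 ± 0.23 under TSA with RK-701, A366 and UNC0638 (adjusted p = 0.000641, 0.000898 and 0.000526). Ubtf, the upstream binding factor that opens active rRNA genes, passed as higher in none of the treatments. The Ubtf mRNA stood at 90.1, 87.6, 78.7 and 84.5 CPM in IVF embryos, 65.9 and 61.3 in SCNT controls and 79.2 and 132 in latrunculin A controls. After injection, Ubtf was at 71.8 and 91.8 CPM with Kdm3a and 82.3 and 83.0 CPM with Kdm4d. Under TSA alone Ubtf was at 142 and 109 CPM, under RK-701 alone at 37.9, 49.1 and 41.8, under A366 alone at 106 and 99.7, and under TSA with RK-701, A366 or UNC0638 at 68.9 and 81.2, at 79.8 and 84.7, and at 59.7 and 59.9. In CPM the 3 RK-701 libraries were the lowest of all 25. In TPM, RK-701 replicate 2, at 23.5, was above TSA with UNC0638, at 21.6 and 23.2. Ubtf fell by 1.30 ± 0.19 on the log2 scale under RK-701 alone (adjusted p = 0.000282) and by 0.82 ± 0.21 under TSA with UNC0638 (adjusted p = 0.0148). Set against the SCNT controls in place of the latrunculin A controls, these became -0.57 (adjusted p = 0.0818) and -0.09 (adjusted p = 0.866), and without latrunculin A control replicate 2 the fall under TSA with UNC0638 was also lost (-0.41, adjusted p = 0.343). Polr1a, the largest subunit, did not pass in any of the 10 comparisons of controls and treatments in the heat map. For Polr1a, the IVF libraries gave 45.2, 51.4, 45.2 and 53.9 CPM, the SCNT controls 65.7 and 54.9 and the latrunculin A controls 60.8 and 67.0. Kdm3a mRNA gave Polr1a levels of 75.6 and 71.9 CPM, and Kdm4d mRNA gave 73.0 and 56.5 CPM. Under TSA alone Polr1a was at 85.6 and 80.5 CPM, under RK-701 alone at 47.5, 58.4 and 55.0, under A366 alone at 65.7 and 73.4, and under TSA with RK-701, A366 or UNC0638 at 66.1 and 65.3, at 57.3 and 62.7, and at 57.8 and 55.1. Its IVF libraries lay at the low end of the range, and the highest values were those under TSA alone.

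Among the abundant nucleolar proteins, 3 of 5 rose after each demethylase, 5 under TSA with RK-701, 4 under TSA with A366 and 5 under TSA with UNC0638, and 0 fell. Npm1, nucleophosmin, is a chaperone of the granular part of the nucleolus. Npm1 was at 1564, 1527, 1756 and 1401 CPM in the IVF embryos, against 1862 and 2535 in the SCNT controls and 1698 and 1414 in the latrunculin A controls. SCNT-Kdm3a embryos had Npm1 at 3776 and 3626 CPM and SCNT-Kdm4d embryos at 3232 and 3330.3. Under TSA alone Npm1 was at 1741 and 2176 CPM, under RK-701 alone at 1364, 1814 and 1525, under A366 alone at 1969 and 2049, and under TSA with RK-701, A366 or UNC0638 at 3088 and 3107, at 3096 and 2961, and at 3156 and 2810.2. In CPM all 10 libraries of the demethylase and co-treated groups were above all 15 others. In TPM, replicate 2 of TSA with UNC0638, at 2470, was below SCNT control replicate 2, at 2599. The change was 0.75 ± 0.17 after Kdm3a (adjusted p = 0.00785), 0.58 ± 0.17 after Kdm4d (adjusted p = 0.0452) and 0.99 ± 0.17, 0.96 ± 0.17 and 0.94 ± 0.17 in the co-treatments with RK-701, A366 and UNC0638 (adjusted p = 0.000513, 0.000774 and 0.000764). Npm1 was already higher in the SCNT controls than in IVF embryos, by 0.49 ± 0.14 (adjusted p = 0.0145), which did not pass without SCNT control replicate 2 or with the replicate number as a block. Gnl3, nucleostemin, is a GTPase found in proliferating cells. The Gnl3 mRNA stood at 464, 380.1, 445 and 379 CPM in IVF embryos, 544 and 641 in SCNT controls and 447 and 516 in latrunculin A controls. After injection, Gnl3 was at 1055 and 974 CPM with Kdm3a and 811 and 1016 CPM with Kdm4d. Under TSA alone Gnl3 was at 554 and 572 CPM, under RK-701 alone at 322, 427 and 364, under A366 alone at 549.8 and 471, and under TSA with RK-701, A366 or UNC0638 at 972 and 960, at 947 and 864, and at 864 and 625. The injected and co-treated libraries were above all IVF libraries, and of them only 1 library of TSA with UNC0638 overlapped with a control. Gnl3 rose by 0.78 ± 0.18 after Kdm3a (adjusted p = 0.0102) and by 1.00 ± 0.18 under TSA with RK-701 (adjusted p = 0.000833).

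Ncl, nucleolin, binds the rRNA precursor. For Ncl, the IVF libraries gave 1072, 982, 1049 and 979 CPM, the SCNT controls 825 and 1216 and the latrunculin A controls 1191 and 823. Kdm3a mRNA gave Ncl levels of 1394 and 1702 CPM, and Kdm4d mRNA gave 1392 and 1558 CPM. Under TSA alone Ncl was at 962 and 1144 CPM, under RK-701 alone at 939, 1175 and 999.8, under A366 alone at 1006 and 952, and under TSA with RK-701, A366 or UNC0638 at 1573 and 1605, at 1519 and 1387, and at 1786 and 1472. In CPM the injected and co-treated groups again lay above all other libraries, but the SCNT controls were far apart. In TPM they overlapped, with SCNT-Kdm3a replicate 1 at 368 and latrunculin A control replicate 1 at 401. The test passed only under TSA with RK-701 (0.66 ± 0.19, adjusted p = 0.0256) and with UNC0638 (0.69 ± 0.19, adjusted p = 0.0197). After Kdm3a Ncl was at 0.60 ± 0.19 (adjusted p = 0.0572). Ddx21, an RNA helicase of the nucleolus, rose in all 5 of these comparisons, by 0.67 to 0.91. Nolc1, which carries snoRNPs, rose in the 3 co-treatments, by 0.66 to 0.82.

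The box C/D proteins act in methylation and cutting of rRNA. Of the 4, 2 rose after Kdm3a and 1 after Kdm4d, and none passed in a co-treatment. Fbl, fibrillarin, is their methyltransferase. Fbl was at 84.1, 78.4, 77.5 and 96.1 CPM in the IVF embryos, against 71.0 and 82.6 in the SCNT controls and 69.0 and 104 in the latrunculin A controls. SCNT-Kdm3a embryos had Fbl at 86.0 and 77.6 CPM and SCNT-Kdm4d embryos at 80.03 and 87.5. Under TSA alone Fbl was at 126 and 128 CPM, under RK-701 alone at 79.6, 91.6 and 77.6, under A366 alone at 112 and 106, and under TSA with RK-701, A366 or UNC0638 at 99.1 and 101, at 94.6 and 109.5, and at 97.7 and 86.6. The groups overlapped, the highest libraries were those of TSA alone, and no comparison in the heat map passed. Nop58 is a core protein of the particle. The Nop58 mRNA stood at 383, 397, 386 and 387 CPM in IVF embryos, 331 and 401 in SCNT controls and 451 and 420.5 in latrunculin A controls. After injection, Nop58 was at 697 and 627 CPM with Kdm3a and 509.7 and 619.5 CPM with Kdm4d. Under TSA alone Nop58 was at 451 and 615 CPM, under RK-701 alone at 431, 499 and 448, under A366 alone at 496 and 500.5, and under TSA with RK-701, A366 or UNC0638 at 529.8 and 531, at 482 and 455, and at 585 and 488. In CPM both demethylase groups were above their controls, and the co-treated libraries were also above theirs, by a smaller margin. In TPM the co-treated libraries, at 110 to 129, were below the latrunculin A controls, at 131 and 139. Nop58 rose by 0.85 ± 0.17 after Kdm3a (adjusted p = 0.00258) and by 0.62 ± 0.17 after Kdm4d (adjusted p = 0.0273), against 0.28 ± 0.17, 0.11 ± 0.17 and 0.30 ± 0.17 in the co-treatments (adjusted p = 0.306, 0.76 and 0.287). Nop56, its partner, rose after Kdm3a, by 0.73 ± 0.21 (adjusted p = 0.0325), a call that was lost under 9 of 14 alternatives. Whether the response of these genes differed between the demethylases and the co-treatments was not tested. Rrp9 belongs to the U3 particle. For Rrp9, the IVF libraries gave 106, 64.6, 83.3 and 132 CPM, the SCNT controls 57.0 and 67.4 and the latrunculin A controls 78.9 and 85.2. Kdm3a mRNA gave Rrp9 levels of 50.7 and 65.2 CPM, and Kdm4d mRNA gave 86.4 and 95.2 CPM. Under TSA alone Rrp9 was at 106 and 111 CPM, under RK-701 alone at 97.0, 92.5 and 88.1, under A366 alone at 90.3 and 90.6, and under TSA with RK-701, A366 or UNC0638 at 103 and 94.9, at 73.8 and 96.9, and at 103 and 99.4. Its IVF libraries were spread widely, and it was lower in the SCNT controls at a log2 fold change of -0.63 ± 0.21 (adjusted p = 0.0299), a call lost under 8 of 15 alternatives.

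Of the box H/ACA proteins, which convert uridine in rRNA to pseudouridine, 3 of 4 rose in each of the 5 comparisons, Dkc1, the dyskerin enzyme itself, Nhp2 and Nop10, and Gar1 did not pass. Dkc1, tested in a fit that included the sex chromosomes, rose by 0.72 ± 0.19 after Kdm3a (adjusted p = 0.025), by 0.75 ± 0.19 after Kdm4d (adjusted p = 0.0219) and by 1.02 ± 0.19, 1.03 ± 0.19 and 1.14 ± 0.19 in the co-treatments. IVF pools are of mixed sex and SCNT embryos all female, so an X-linked gene in IVF and SCNT embryos is not given here. Nhp2 was lower in both controls than in IVF embryos, at a log2 fold change of -0.89 ± 0.18 and -0.95 ± 0.18 (adjusted p = 0.000696 and 0.000346), and rose in the 5 treated groups by 0.81 to 0.99. Nop10 is the smallest protein of the particle. Nop10 was at 262, 294, 330.1 and 276 CPM in the IVF embryos, against 179.7 and 244 in the SCNT controls and 228 and 207 in the latrunculin A controls. SCNT-Kdm3a embryos had Nop10 at 309 and 377 CPM and SCNT-Kdm4d embryos at 354 and 358. Under TSA alone Nop10 was at 241 and 255 CPM, under RK-701 alone at 113, 139 and 152, under A366 alone at 238 and 242, and under TSA with RK-701, A366 or UNC0638 at 397 and 499, at 381 and 367, and at 384 and 309.5. The 3 RK-701 libraries were the lowest of all 25, and the co-treated ones with the same inhibitor were the highest. Nop10 fell by 0.69 ± 0.17 on the log2 scale under RK-701 alone (adjusted p = 0.0152) and rose by 1.04 ± 0.19 under TSA with RK-701 (adjusted p = 0.000777).

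**Figure D4:**
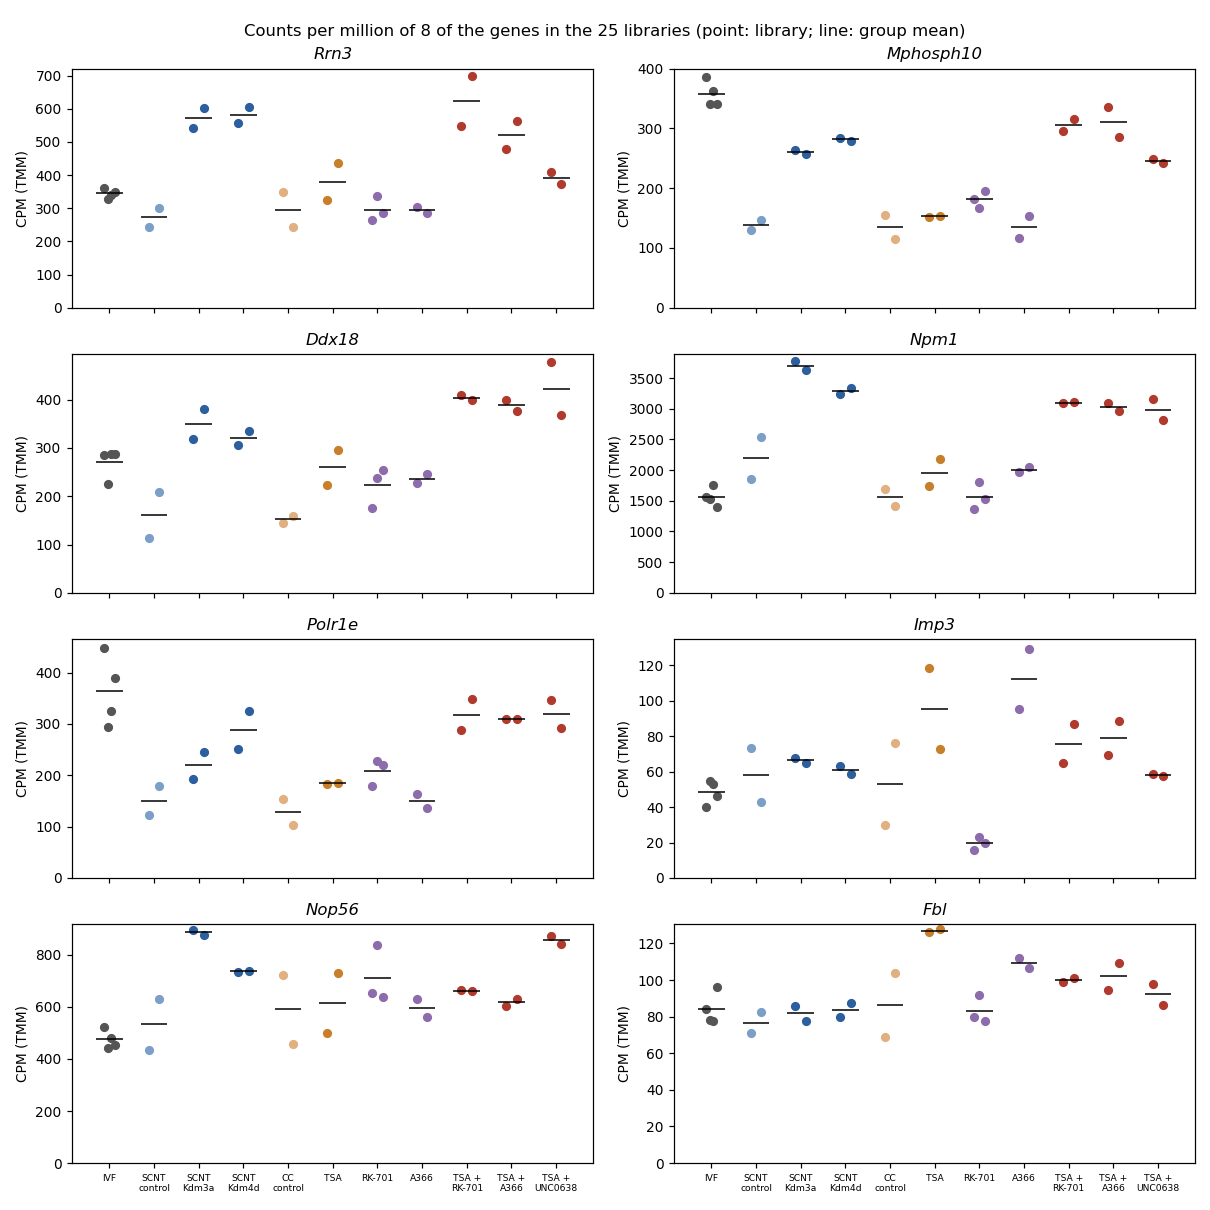
TMM-scaled CPM of 8 of the genes in the 25 libraries (points) by group, with the group mean as a line. Rrn3 and Npm1 lie highest in the demethylase and co-treated groups, Mphosph10 highest in IVF embryos, Imp3 lowest under RK-701 alone, and Fbl overlaps between groups.

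Of the 19 factors of the small subunit, 5 were lower and 2 higher in the SCNT controls than in IVF embryos, 6 lower and 2 higher in the latrunculin A controls, and 3 rose after Kdm3a, 7 after Kdm4d and 9 in each co-treatment, with 0 falling. Mphosph10, which forms a complex with Imp3 and Imp4 on the U3 snoRNP, had the smallest adjusted p of all members in both controls against IVF embryos and across the 11 groups (3.22e-08). The Mphosph10 mRNA stood at 386, 342, 362 and 341 CPM in IVF embryos, 129 and 147 in SCNT controls and 155 and 114 in latrunculin A controls. After injection, Mphosph10 was at 264 and 257 CPM with Kdm3a and 284 and 279 CPM with Kdm4d. Under TSA alone Mphosph10 was at 152 and 153 CPM, under RK-701 alone at 182, 167 and 196, under A366 alone at 117 and 154, and under TSA with RK-701, A366 or UNC0638 at 295 and 315, at 335 and 285, and at 249.5 and 242. Every IVF library was above all 21 others, and every library of the demethylase and co-treated groups was above both kinds of control. It was lower at a log2 fold change of -1.37 ± 0.16 and -1.41 ± 0.16 in the controls (adjusted p = 5.88e-07 and 4.6e-07). It rose by 0.92 ± 0.18 after Kdm3a (adjusted p = 0.002), 1.03 ± 0.18 after Kdm4d (adjusted p = 0.00103) and 1.18 ± 0.18 under TSA with RK-701 (adjusted p = 0.000153). Repeats cover 11.9% of its exon bases, and read pairs over 2 features were not counted. Utp3 is an early component of the processome. For Utp3, the IVF libraries gave 268, 183, 289 and 286 CPM, the SCNT controls 106 and 127 and the latrunculin A controls 124 and 129.6. Kdm3a mRNA gave Utp3 levels of 133 and 158 CPM, and Kdm4d mRNA gave 228 and 247 CPM. Under TSA alone Utp3 was at 185 and 211 CPM, under RK-701 alone at 111, 139 and 135, under A366 alone at 175 and 157, and under TSA with RK-701, A366 or UNC0638 at 275 and 328, at 269 and 302, and at 234 and 209. The controls were below all IVF libraries, and the co-treated libraries overlapped with the IVF range and reached above it. Utp3 was at -1.14 ± 0.18 and -1.02 ± 0.18 in the controls against IVF (adjusted p = 4e-05 and 0.000143), 1.03 ± 0.20 after Kdm4d (adjusted p = 0.00327), and 1.25 ± 0.20 under TSA with RK-701 (adjusted p = 0.000298). After Kdm3a it did not pass, at 0.33 ± 0.20 (adjusted p = 0.372), and the demethylases did not differ in it by the test.

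Ddx10 is an RNA helicase of the same pathway. Ddx10 was at 195, 166, 154 and 167 CPM in the IVF embryos, against 166 and 179 in the SCNT controls and 179 and 137 in the latrunculin A controls. SCNT-Kdm3a embryos had Ddx10 at 245 and 266 CPM and SCNT-Kdm4d embryos at 199 and 219. Under TSA alone Ddx10 was at 197 and 250.2 CPM, under RK-701 alone at 225, 256 and 193, under A366 alone at 153 and 173, and under TSA with RK-701, A366 or UNC0638 at 381 and 325, at 344 and 353, and at 289 and 268. In CPM all 6 co-treated libraries were above all 19 others. In TPM, TSA with UNC0638, at 202 and 201, was below RK-701 replicate 2, at 237. Ddx10 rose by 1.16 ± 0.18, 1.14 ± 0.18 and 0.82 ± 0.18 under TSA with RK-701, A366 and UNC0638 (adjusted p = 0.000287, 0.000311 and 0.00496), and was at 0.57 ± 0.18 and 0.28 ± 0.18 after Kdm3a and Kdm4d (adjusted p = 0.0634 and 0.423). Nat10, which acetylates RNA, and Rrp12, an export factor of the subunits, were higher in the latrunculin A controls than in IVF embryos. The Nat10 mRNA stood at 35.2, 38.2, 41.7 and 34.6 CPM in IVF embryos, 52.3 and 59.2 in SCNT controls and 42.7 and 88.3 in latrunculin A controls. After injection, Nat10 was at 60.8 and 50.1 CPM with Kdm3a and 53.6 and 49.9 CPM with Kdm4d. Under TSA alone Nat10 was at 98.8 and 65.4 CPM, under RK-701 alone at 43.0, 56.7 and 54.9, under A366 alone at 71.4 and 77.1, and under TSA with RK-701, A366 or UNC0638 at 51.4 and 62.6, at 52.1 and 51.1, and at 66.9 and 60.1. The 4 IVF libraries were the lowest of all 25. Nat10 was higher by 0.80 ± 0.22 in the latrunculin A controls (adjusted p = 0.00833), which are far apart, and without replicate 2 it did not pass (0.19). For Rrp12, the IVF libraries gave 32.1, 43.6, 49.02 and 42.3 CPM, the SCNT controls 68.2 and 60.6 and the latrunculin A controls 62.5 and 92.6. Kdm3a mRNA gave Rrp12 levels of 77.7 and 85.3 CPM, and Kdm4d mRNA gave 72.1 and 63.6 CPM. Under TSA alone Rrp12 was at 116 and 104 CPM, under RK-701 alone at 61.9, 81.0 and 68.5, under A366 alone at 82.7 and 87.9, and under TSA with RK-701, A366 or UNC0638 at 78.9 and 65.2, at 62.0 and 79.8, and at 79.5 and 61.9. All IVF libraries were again below all others, with 0.62 ± 0.19 and 0.88 ± 0.19 in the controls (adjusted p = 0.0208 and 0.00113), and no treatment passed the test against its own control.

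Rcl1 takes part in cutting the precursor. Rcl1 was at 138, 85.6, 137 and 147 CPM in the IVF embryos, against 54.2 and 75.4 in the SCNT controls and 91.3 and 63.6 in the latrunculin A controls. SCNT-Kdm3a embryos had Rcl1 at 56.2 and 70.0 CPM and SCNT-Kdm4d embryos at 88.6 and 99.0. Under TSA alone Rcl1 was at 90.5 and 98.6 CPM, under RK-701 alone at 64.0, 48.2 and 50.7, under A366 alone at 78.6 and 99.3, and under TSA with RK-701, A366 or UNC0638 at 118 and 151, at 85.3 and 109, and at 105 and 67.2. IVF replicate 2 was far below the other IVF libraries, and the SCNT controls were lower than IVF at a log2 fold change of -0.97 ± 0.24 (adjusted p = 0.00367). Imp3 and Utp18, described because of the G9ai comparison and chosen after their values were seen, were lower under RK-701 alone than under A366 alone. The Imp3 mRNA stood at 40.1, 54.9, 52.9 and 46.5 CPM in IVF embryos, 73.5 and 43.0 in SCNT controls and 29.8 and 75.9 in latrunculin A controls. After injection, Imp3 was at 67.6 and 65.0 CPM with Kdm3a and 63.1 and 58.8 CPM with Kdm4d. Under TSA alone Imp3 was at 119 and 72.5 CPM, under RK-701 alone at 15.6, 23.2 and 19.8, under A366 alone at 95.6 and 129, and under TSA with RK-701, A366 or UNC0638 at 64.8 and 86.6, at 69.5 and 88.4, and at 58.7 and 57.5. The 3 RK-701 libraries were the lowest and the A366 libraries among the 3 highest of all 25, while the latrunculin A controls differed from each other by more than 2-fold. Imp3 fell by 1.43 ± 0.29 on the log2 scale under RK-701 alone (adjusted p = 0.00408), which did not pass without latrunculin A control replicate 2 (-0.61). Utp18 was at 56.9, 68.0 and 68.0 CPM under RK-701 and at 153 and 146 CPM under A366. Dcaf13, Utp4, Utp15, Wdr43 and Nob1 rose in all 3 co-treatments, by 0.62 to 1.35. Bms1 rose with RK-701 and A366 and Nop14 with UNC0638, and Utp20, Tsr1, Heatr1, Imp4, Utp18, Imp3, Rcl1, Nat10 and Rrp12 passed in no co-treatment. Transposable elements cover 47.6% of the exon bases of Dcaf13, and 32.3% of those of Tsr1 are shared with the gene Srr, so their counts are less certain.

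Of the 11 factors of the large subunit, 6 were lower and 1 higher in the SCNT controls than in IVF embryos, 4 lower and 1 higher in the latrunculin A controls, and 6 rose after Kdm3a, 5 after Kdm4d and 5 in each co-treatment, with 0 falling. The same 5 rose in each co-treatment: Ddx18, Nip7, Nop16, Ebna1bp2 and Wdr12. Ddx18 is an RNA helicase of the early large subunit. For Ddx18, the IVF libraries gave 285, 225, 288 and 287 CPM, the SCNT controls 114 and 209 and the latrunculin A controls 145 and 159. Kdm3a mRNA gave Ddx18 levels of 318 and 381 CPM, and Kdm4d mRNA gave 306 and 336 CPM. Under TSA alone Ddx18 was at 224 and 297 CPM, under RK-701 alone at 176, 238 and 253, under A366 alone at 228 and 246, and under TSA with RK-701, A366 or UNC0638 at 409.5 and 399, at 399 and 377, and at 477 and 367. In CPM the demethylase and co-treated libraries were above every IVF and control library, and all 4 control libraries were below every IVF library. In TPM, SCNT-Kdm4d replicate 1, at 285, was below IVF replicate 1, at 292. Ddx18 rose by 1.11 ± 0.23 after Kdm3a (adjusted p = 0.00349), 0.99 ± 0.23 after Kdm4d (adjusted p = 0.0107), and 1.41 ± 0.23, 1.35 ± 0.23 and 1.47 ± 0.23 in the co-treatments (adjusted p = 0.000326, 0.000473 and 0.000158). Nip7, Nop16 and Ebna1bp2 rose in all 5 of these comparisons, by 0.85 to 1.44. Wdr12, a member of the PeBoW complex, rose after Kdm3a and in the 3 co-treatments, and its partners Pes1 and Bop1 passed in none of the 5. Nop2, an rRNA methyltransferase, rose after Kdm3a (0.88 ± 0.19, adjusted p = 0.0061) and Kdm4d (0.72 ± 0.19, adjusted p = 0.0276) and passed in no co-treatment.

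Rrp1 and Rrp1b are related proteins of the large subunit pathway. Rrp1 was at 80.5, 58.9, 64.0 and 75.8 CPM in the IVF embryos, against 83.5 and 86.1 in the SCNT controls and 131 and 89.0 in the latrunculin A controls. SCNT-Kdm3a embryos had Rrp1 at 75.7 and 82.8 CPM and SCNT-Kdm4d embryos at 92.2 and 114. Under TSA alone Rrp1 was at 70.6 and 99.6 CPM, under RK-701 alone at 134, 153 and 131, under A366 alone at 86.2 and 63.1, and under TSA with RK-701, A366 or UNC0638 at 116 and 111, at 96.7 and 99.6, and at 114 and 111. The RK-701 libraries and latrunculin A control replicate 1 were the 4 highest of all 25, and the IVF libraries were near the low end. Rrp1 was higher in the latrunculin A controls than in IVF embryos by 0.66 ± 0.18 (adjusted p = 0.00938), and did not pass without replicate 1 of that control. The Rrp1b mRNA stood at 56.9, 42.4, 43.3 and 45.7 CPM in IVF embryos, 63.3 and 118 in SCNT controls and 76.5 and 48.6 in latrunculin A controls. After injection, Rrp1b was at 73.4 and 99.8 CPM with Kdm3a and 82.1 and 111 CPM with Kdm4d. Under TSA alone Rrp1b was at 95.9 and 78.5 CPM, under RK-701 alone at 78.3, 80.9 and 70.8, under A366 alone at 89.5 and 50.3, and under TSA with RK-701, A366 or UNC0638 at 106 and 117, at 90.1 and 80.8, and at 92.2 and 72.9. IVF libraries were at the low end, and SCNT control replicate 1 lay just above them while replicate 2 was the highest of all 25. Rrp1b was higher in the SCNT controls by 0.95 ± 0.24 (adjusted p = 0.00421), and without SCNT control replicate 2 it did not pass (0.43). Neither gene passed after a demethylase or in a co-treatment.

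The demethylase and co-treatment comparisons share no library. Under TSA with RK-701, 25 of the 49 members (51.0%) rose in all, and the overlaps were not tested against that share. Of the 18 members that rose after Kdm3a, 14 (77.8%) also rose under TSA with RK-701, which is 56% of the 25 that rose there. Of the 22 that rose after Kdm4d, 19 (86.4%) also rose under TSA with RK-701, which is 76% of those 25. The exceptions were Heatr1, Nop2, Nop56 and Nop58 for Kdm3a and Imp4, Nop2 and Nop58 for Kdm4d.

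The treated embryos were also compared with IVF embryos. Under TSA with RK-701, 17 members were higher and 0 lower than in IVF embryos (10.4% and 8.04% of all genes), with 4 higher and 0 lower beyond 2-fold (6.22% and 5.98%). Under TSA with A366 the counts were 16 and 0 (9.11% and 7.23%), under TSA with UNC0638 17 and 1 (8.8% and 6.14%), after Kdm4d 14 and 0 (8.23% and 6.21%) and after Kdm3a 17 and 6 (10.4% and 8.9%). Beyond 2-fold, 2 members were higher and 0 lower under TSA with A366 (5.47% and 5.44% of all genes), 1 and 0 under TSA with UNC0638 (5.49% and 4.35%), 4 and 0 after Kdm4d (4.8% and 4.49%) and 3 and 1 after Kdm3a (6.51% and 6.33%). Median log2 fold changes were 0.42, 0.38, 0.35, 0.32 and 0.30, in the same order, and stayed above 0 under the other scalings. The groups given 1 agent had TSA 14 higher and 8 lower (11.4% and 10.3%), RK-701 8 and 13 (9.68% and 9.69%) and A366 5 and 12 (11.6% and 10.5%). Of these, 2 and 3 were beyond 2-fold for TSA (7.68% and 7.22%), 1 and 5 for RK-701 (6.56% and 5.25%) and 2 and 4 for A366 (7.93% and 7.25%). The medians of the 2 inhibitors, -0.16 and -0.06, became 0.06 and 0.16 when scaled to all gene reads and 0.10 and 0.18 with summed TPM. All these comparisons share the 4 IVF libraries. Some rest on 1 treated library: 4 members passed without SCNT-Kdm4d replicate 2, 5 without replicate 2 of TSA with A366, 4 without replicate 1 of TSA with UNC0638, 10 without replicate 1 of TSA with RK-701, 13 without SCNT-Kdm3a replicate 1, 9 without TSA replicate 1 and 9 without A366 replicate 2. The genes lowest in untreated SCNT embryos did not pass against IVF embryos under TSA with RK-701, with Polr1c at -0.15 ± 0.19, Polr1e at -0.19 ± 0.20, Mphosph10 at -0.23 ± 0.15, Utp3 at 0.23 ± 0.17 and Nhp2 at -0.05 ± 0.17. Those higher than in IVF embryos included Rrp1b at 1.25 ± 0.23 (adjusted p = 0.000334), Gnl3 at 1.21 ± 0.15 (adjusted p = 1.89e-06), Npm1 at 0.99 ± 0.14 (adjusted p = 1.36e-05) and Ddx10 at 1.05 ± 0.15 (adjusted p = 1.51e-05). After Kdm3a, Utp3 at -0.82 ± 0.18, Rcl1 at -1.01 ± 0.24, Polr1c at -0.86 ± 0.20, Polr1e at -0.73 ± 0.20, Rrp9 at -0.73 ± 0.21 and Mphosph10 at -0.46 ± 0.15 were still lower than in IVF embryos past the test (adjusted p = 0.00156, 0.00297, 0.00299, 0.0109, 0.0129 and 0.036).

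The 3 G9a inhibitors were each given at 1 µM for 24 h, and their structures were not compared, since they are known here by code names. Alone, RK-701 and A366 were compared in 1 pair. In A366 embryos 5 members were higher and 5 lower than in RK-701 embryos (6.82% and 6.11% of all genes), with 3 higher beyond 2-fold (3.97%). Imp3 was higher by 2.53 ± 0.29 (adjusted p = 2.66e-06), Ubtf by 1.26 ± 0.19 (adjusted p = 6.84e-05) and Utp18 by 1.22 ± 0.18 (adjusted p = 3.74e-05), and these 3 and Nop10 (0.84 ± 0.17, adjusted p = 0.00123) passed under all 14 alternatives. Without A366 replicate 2, 4 of the 10 members passed. Rcl1 was also higher, and Rrp1, Tsr1, Polr1c, Nob1 and Imp4 were lower, each by less than 2-fold. With TSA present, the 3 inhibitors gave 3 pairs. No member differed by edgeR. Between A366 and RK-701, 0% of all genes rose or fell. The shares were 0.779% and 0.43% between UNC0638 and RK-701, and 0.818% and 0.19% between UNC0638 and A366. In the same order, 0, 5 and 3 members had an unadjusted p under 0.05, against 1000, 2973 and 2608 of the 25794 genes. DESeq2's test passed 1 member, for UNC0638 against RK-701. The lowest adjusted p was for Rrn3, lower under UNC0638 than under RK-701 at a log2 fold change of -0.67 ± 0.19 (adjusted p = 0.0912). The 95% intervals of the differences ran from -1.001 to 0.71 for A366 against RK-701, from -1.17 to 0.79 for UNC0638 against RK-701 and from -1.09 to 0.89 for UNC0638 against A366, and lay within 2-fold for 48, 45 and 48 of 49 members.

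Whether TSA and a G9ai together gave more than the sum of both was tested as an interaction on the log2 scale. With RK-701, 3 members were above the sum and 0 below (1.55% and 0.756% of all genes): Nop10 by 1.54 ± 0.25 (adjusted p = 0.003), Gnl3 by 1.16 ± 0.24 (adjusted p = 0.0126) and Polr1d by 1.14 ± 0.27 (adjusted p = 0.0234). With A366, 2 were above and 0 below (1.32% and 0.566%), Dcaf13 by 1.48 ± 0.34 (adjusted p = 0.0243) and Mphosph10 by 1.02 ± 0.25 (adjusted p = 0.0319). Each of these 5 calls was lost under some alternative, and without replicate 2 of TSA with RK-701 no member was called beyond 2-fold for RK-701. UNC0638 alone was not analysed here, so it has no such test. Across all 11 groups 45 of the 49 members differed (42.5% of all genes), and Polr1b, Gar1, Utp20 and Bop1 did not pass.

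Another 95 autosomal genes of the pathway, from a list of further RNA polymerase I, small subunit, large subunit, exosome and snoRNP assembly genes of which 97 of 102 names were matched, were counted alongside, with TMM scaling, the other scalings not having been run for these genes. In the SCNT and latrunculin A controls 36 and 35 of them were lower than in IVF embryos (10.6% and 10.2% of all genes). In the same order 5 and 5 were higher (10.7% and 11.5%), with medians of -0.40 and -0.33. After Kdm3a 34 and after Kdm4d 29 rose (4.2% and 3.94% of all genes). Under TSA with RK-701, A366 and UNC0638, 42, 41 and 38 rose (6.47%, 5.84% and 6.02%). In these 5 comparisons 0 fell (1.93%, 1.25%, 3.18%, 3.39% and 3.01% of all genes), and the medians were 0.53 to 0.70. TSA, RK-701 and A366 alone gave 2, 5 and 1 higher (0.221%, 2.68% and 0.0892% of all genes) and 0, 5 and 0 lower (0.159%, 2.78% and 0.0388%).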

How the data were processed

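RNA was measured in 25 libraries of pooled late two-cell mouse embryos, made with the SMART-Seq HT kit from polyadenylated RNA, so rRNA itself was not measured. Per the labels and the study's methods, the authors used Trimmomatic for trimming and STAR for alignment to mm10, then counted unique pairs per gene or transposable element copy with featureCounts, with no strand option stated, and deposited raw counts. Pairs that overlap several features were not counted, and without strand a gene and its antisense partner cannot be told apart. From these counts, edgeR 4.0.16 (R 4.3.3) fitted 1 quasi-likelihood model with TMM factors over all 11 groups and 25794 autosomal genes (mean count not below 1), with Benjamini-Hochberg adjustment over all of them. A gene passed at an adjusted p under 0.05 and was called beyond 2-fold if its fold change was also over 2. SEs are those implied by the F statistic. CPM are TMM-scaled. Dkc1 was taken from a fit that kept the sex chromosomes. The fit was tested on simulated data for TSA with RK-701 against its control, with 50 genes changed at each fold. Of these, 1 passed at 1.5-fold, 18 at 2-fold, 43 at 3-fold and 49 at 4-fold, and 7 unchanged genes passed. Most changes of 2-fold or less were thus missed in the simulation. It changed far fewer genes than passed in the data, where 1669 rose and 820 fell. These shares therefore do not carry over to the data. Alternatives were DESeq2 1.42.0, relative log expression (RLE) factors, no filter, only the compared libraries, a replicate block, the other untreated control and each library left out, and, chosen after seeing the data, library size without TMM and the TPM denominator. The share of all genes past the test was not counted under these alternatives. Leaving out a library from a group of 2 leaves 1 in it. Values in every library are given for 6 fixed genes (Polr1a, Rrn3, Ubtf, Ncl, Npm1 and Fbl), for up to 4 members in each direction with the smallest adjusted p in both controls against IVF, both demethylases and TSA with RK-701, and for the 6 with the smallest p among the 11 groups. The members and lists were chosen with earlier results of these data known.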

Additional observations from a re-analysis of the deposited data

Results flagged for a closer look

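In 4 of 50 genes tested, the lowest of the 4 IVF libraries stood apart from the rest, where its gap to its neighbour, divided by the whole range, passed Dixon's critical value at the 95% level. It was IVF replicate 2 each time: Ddx18 (ratio 0.952), Wdr43 (0.870), Utp15 (0.850) and Rcl1 (0.837). Chance flags about 1 in 20 groups. All 4 flags fall on the same library, so they are not independent, and the share over all genes was not counted. Rcl1 was at 85.6 CPM there against 137 to 147 in the other IVF libraries, and Ddx18 at 225 against 285 to 288.

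The effect of RK-701 differed between embryos with and without TSA, by the interaction test of edgeR, for Nop10 (1.54 on the log2 scale), Gnl3 (1.16) and Polr1d (1.14). The effect of A366 differed with TSA for Dcaf13 (1.48) and Mphosph10 (1.02). Each of these calls was lost under some alternative, and the share of all genes is given with the interaction results.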

How the results depend on the processing

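No autosomal gene past the test changed direction under the alternatives run, in the comparisons followed gene by gene. These were both controls against IVF, treatments against their own control, A366 against RK-701 and the interactions. Genes past the test in treated embryos against IVF embryos were not followed in this way. The median member against IVF embryos did change sign with scaling in the latrunculin A controls and under RK-701 or A366 alone. In the SCNT controls it came close to 0, and its sign was not settled. The values are given beside those results. Counts beyond 2-fold that moved by over 1.5 times were as follows. With RLE factors, TSA with A366 against IVF gave 1 and Kdm4d 3. With DESeq2 these were 1 and 3, A366 alone 1 and the interaction of TSA and A366 4. Without a filter, A366 alone gave 1 and that interaction 5. With only the compared libraries, Kdm4d gave 4, RK-701 alone 1, TSA with RK-701 10, TSA with UNC0638 4 and the interactions with RK-701 and A366 1 and 0. Against the other untreated control, Kdm3a gave 7, TSA 1 and RK-701 alone 1. With library size without TMM, Kdm4d against IVF gave 2, TSA with A366 against IVF 1, Kdm3a 0, Kdm4d 0, the co-treatments with RK-701, A366 and UNC0638 3, 2 and 3, and the interactions 1 and 1. With the TPM denominator these were 1, 1, 0, 0, 1, 1 and 2, and 1 for the interaction with A366. The share of all genes was not counted in these fits or in those with 1 library left out, and the cause was not tested.

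Leaving out 1 library gave 5 to 11 called in SCNT controls against IVF, 3 to 11 in latrunculin A controls, 0 to 15 for Kdm3a, 0 to 14 for Kdm4d, 0 to 1 for TSA, 0 to 7 for RK-701, 0 to 1 for A366, and 9 to 21, 8 to 17 and 3 to 18 for the co-treatments with RK-701, A366 and UNC0638. It gave 0 to 8 and 0 to 10 for the interactions with RK-701 and A366, 3 to 4 for A366 against RK-701, 0 to 2 between the 2 controls, and against IVF 3 to 5 for Kdm3a, 2 to 4 for Kdm4d, 2 to 8 for TSA, 5 to 8 for RK-701, 4 to 7 for A366, and 3 to 5, 2 to 3 and 1 to 3 for the co-treatments.

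Over 110 pairs of libraries with a shared replicate number, the correlations of deviations from the group mean ran from -0.53 to 0.32. Of these, 22 were over 0.1, and 3 libraries were closest to their own number. In a group of 2 libraries the deviations mirror each other, so most of these correlations are counted again under the other number. They cannot show whether the replicate numbers pair the samples. With the replicate block, TSA with A366 against IVF gave 1 and the interaction of TSA and A366 1 beyond 2-fold, and 16, 14, 24 and 21 members rose after Kdm3a and Kdm4d and under TSA with RK-701 and with A366. With 2 libraries in most groups, the 95% intervals of differences between co-treatments reached a median of 0.42 to either side on the log2 scale, which limits what differences could be detected.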
